A study of Mus musculus with 3 samples.

Results

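The 10 genes described here encode kinases that respond to calcium-bound calmodulin, the kinases that switch some of them on, and a related protein that lacks kinase activity. They are Camk2a, Camk2b, Camk2d, Camk2g, Camk4, Camk1, Camk1d, Camkk1, Camkk2 and Camkv. They were taken by symbol, with no threshold on their values, and all 10 were found among the 32531 gene symbols counted. The data are RNA from ribosomes captured out of whole cerebral cortex of adult mice, a cross named Htr3a-Cre (NO176)::Rosa26-LSL-EGFP/Rpl10a. In this cross, Cre driven by Htr3a, the gene of a serotonin receptor subunit found on a class of cortical inhibitory interneurons, removes a stop signal in front of EGFP fused to the ribosomal protein Rpl10a. Cells that have had Cre, and their lineage, then carry tagged ribosomes, which were pulled down from tissue homogenate with antibodies to EGFP. The design text names interneurons as the cells profiled. There is 1 group of 3 libraries, replicates 1, 2 and 3, with no library of unpurified cortex analysed here. Nothing in the labels ties the replicates to different animals or to the same one, so the p-values below reflect the spread among these 3 libraries alone, and that spread may be technical. Gene counts summed to 14383545, 13951332 and 14461053 in replicates 1, 2 and 3. With 1 group, the comparisons are between genes within a library and between libraries.

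Calcium entering an active neuron binds calmodulin, and calcium-calmodulin opens the catalytic site of these kinases. CaMKII is a large ring built of subunits from the genes Camk2a, Camk2b, Camk2d and Camk2g, and it can phosphorylate itself and then stay active after calcium has fallen, a property studied for its part in synaptic plasticity. CaMKI (Camk1, Camk1d) and CaMKIV (Camk4) work as single subunits that reach full activity only once a CaM kinase kinase (Camkk1, Camkk2) has phosphorylated them. CaMKIV is mostly nuclear and phosphorylates CREB, whereas CaMKI is mostly cytoplasmic. In cortex, the alpha subunit of CaMKII is widely used as a marker of excitatory neurons, and its promoter is used to drive transgenes there.

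The CaMKII genes are close relatives, so the letters that separate them decide whether a read can be given to the right gene. A stretch of the catalytic domain, 60 coding bases from position 280, in exon 5 of the principal transcript, is shown for the beta, delta and gamma genes because it is a conserved part of the coding sequence. Capitals mark the 10 of 60 positions at which these genes do not all carry the same base. The sequences are from GRCm38, at chr11:5997885-5997944 on the minus strand for Camk2b, chr3:126767518-126767577 on the plus strand for Camk2d and chr14:20770066-20770125 on the minus strand for Camk2g, each written 5′ to 3′ along the transcript.
Camk2b: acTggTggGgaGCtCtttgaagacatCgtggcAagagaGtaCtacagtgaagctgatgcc
Camk2d: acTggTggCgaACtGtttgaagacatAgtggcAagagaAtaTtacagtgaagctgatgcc
Camk2g: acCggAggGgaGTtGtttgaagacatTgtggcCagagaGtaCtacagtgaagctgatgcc
In this window Camk2b differed from Camk2d at 6 positions and from Camk2g at 6, and Camk2d differed from Camk2g at 9. Over all annotated exons, the longest stretch without a difference was 34 bases between Camk2a and Camk2b, 34 between Camk2a and Camk2d, and 29 between Camk2a and Camk2g. It was 29 bases between Camk2b and Camk2g, and 23 between Camk2d and each of Camk2b and Camk2g. No window of 50 bases was therefore shared between any CaMKII genes, and Camk2a shared 0.299% of its windows with any other gene of the annotation. The read length is not given in the sources used here.

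Camk2a was by far the most abundant of the CaMKII genes in the captured RNA. Levels are in TPM, that is, counts divided by the length of a gene's merged annotated exons with every library brought to an equal total. Camk2a encodes the alpha subunit (GRCm38 chromosome 18, 60925618 to 60988152, plus strand), and it stood at 2887, 2428 and 2319 TPM in replicates 1, 2 and 3, with a mean of 2545 ± 302 (SD, n = 3). It was highest in replicate 1, and its mean ranked 29 among the 16646 genes with a length and a count. The median over the genes tested was 20.4 TPM. In bulk samples such as these, fewer cells of a type and less RNA per cell cannot be told apart, and this holds for every level given here. With no library of unpurified cortex analysed here, RNA on tagged ribosomes also cannot be told apart from background RNA of other cells. That limit applies to Camk2a and to every other level as well.

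Camk2b, the beta subunit, which binds actin filaments (chromosome 11, 5969644 to 6066362, minus strand), stood at 301, 306 and 293 TPM in replicates 1, 2 and 3 (299.8 ± 6.38, SD, n = 3). Camk2g, the gamma subunit (chromosome 14, 20734875 to 20794088, minus strand), stood at 176, 158 and 139 TPM (158 ± 18.8). Camk2d, the delta subunit, best known from heart (chromosome 3, 126596302 to 126846326, plus strand), stood at 50.2, 45.2 and 44.6 TPM (46.7 ± 3.07). None of these 3 genes overlapped with Camk2a or with each other in any library, so the order alpha, beta, gamma, delta held in each of the 3 libraries.

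**Figure D1:**
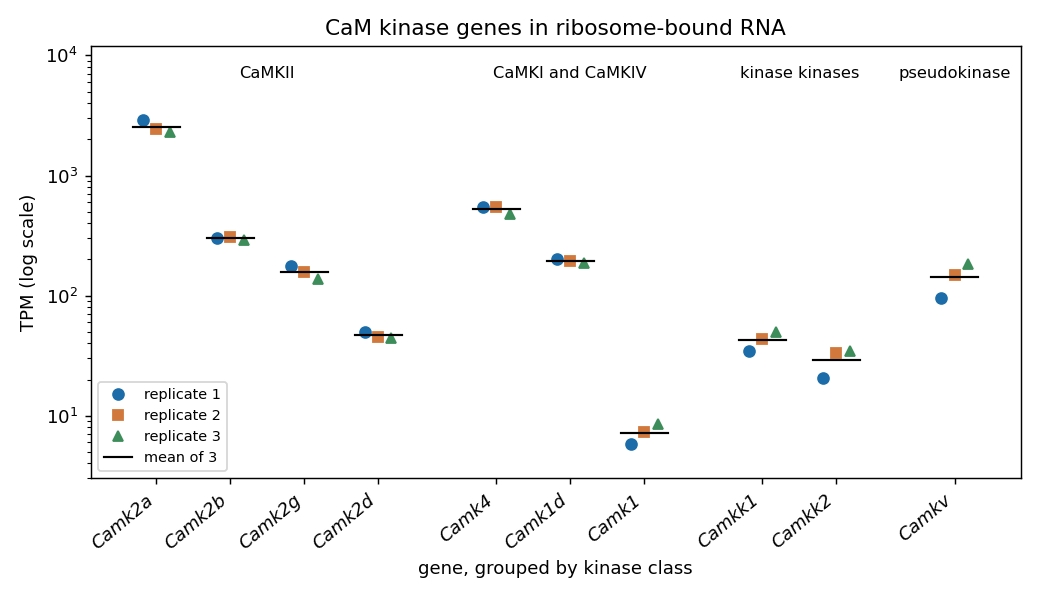
TPM of each CaM kinase gene on a log axis, grouped by kinase class, with 1 symbol for each of the 3 libraries and a line at their mean. Camk2a lies at 2319 to 2887 TPM, above each of the other 9 genes in every library, and the symbols of replicate 1 lie lowest for Camkv, Camkk1, Camkk2 and Camk1.

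Within a library, Camk2a exceeded Camk2b by 3.26, 2.99 and 2.98 in replicates 1, 2 and 3 on the log2(TPM + 0.1) scale. The mean difference was 3.08 (SD 0.16, n = 3), an 8.45-fold difference in level (limma, Benjamini-Hochberg adjusted over 13132 genes, two-sided, adjusted p = 3.52e-05). Camk2g lay 16.1-fold below Camk2a (log2 difference 4.01, SD 0.06, limma adjusted p = 1.18e-05). Camk2d lay 54.2-fold below it (log2 difference 5.76, SD 0.08, limma adjusted p = 7.39e-06). All 3 other CaMKII genes were thus below Camk2a past the threshold of 0.05, in 3 of 3 libraries. That count carries little by itself, since 99.7% of all genes tested (13090 of 13132) were below Camk2a by the same rule. In the other direction, 0.137% (18 genes) were above it, none of them a CaM kinase gene. What sets the CaMKII genes apart from each other is the size of the gaps, which were larger than their spread over the libraries.

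As shares of the summed CaMKII level, Camk2a made up 84.6%, 82.7% and 83.0% in replicates 1, 2 and 3 (83.4% ± 1.02, SD, n = 3). Camk2b made up 8.81%, 10.4% and 10.5% (9.90% ± 0.95). Camk2g made up 5.16%, 5.38% and 4.96% (5.17% ± 0.21), and Camk2d 1.47%, 1.54% and 1.60% (1.54% ± 0.06). Camk2a transcripts were thus 5.48, 4.77 and 4.87 times those of the other CaMKII genes together (5.04 ± 0.38). The share of Camk2a was highest, and that of Camk2b lowest, in replicate 1. These are shares of captured RNA, which may include background RNA, and the subunit make-up of the CaMKII protein was not measured.

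**Figure D2:**
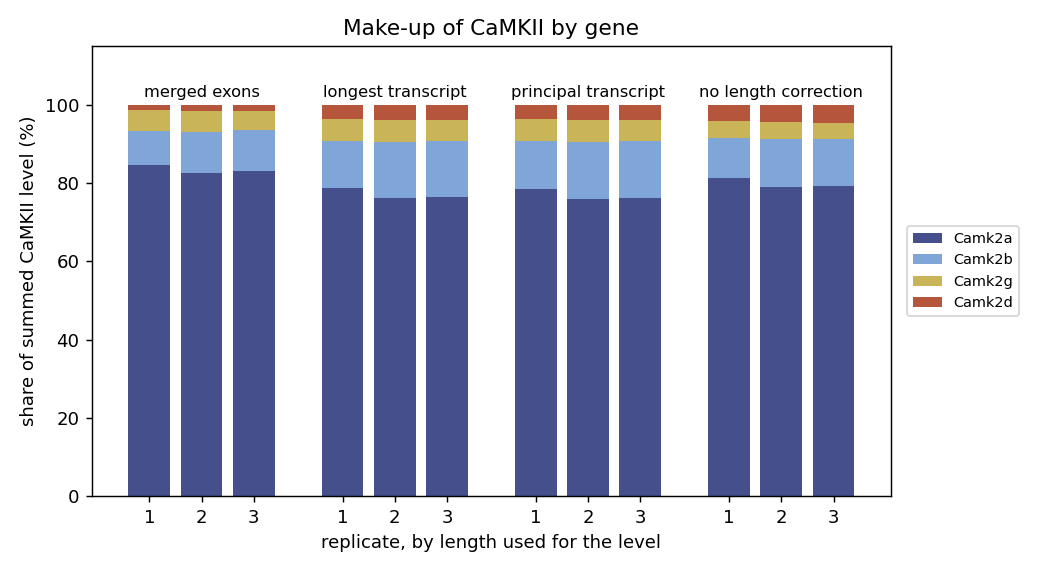
Stacked bars of the share of each CaMKII gene in the summed CaMKII level, in percent, for replicates 1 to 3 under 4 ways of treating gene length. Camk2a takes 82.7% to 84.6% with merged exons and 76.0% to 78.5% with the principal transcript, and Camk2d has the thinnest slice in each of the length-corrected bars.

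The size of these gaps depended on the length given to each gene. Camk2d has 28 annotated transcripts whose merged exons span 22493 bases, against 5524 bases for its principal transcript, the largest such excess among the CaMKII genes. For Camk2a the merged exons span 7465 bases and the principal transcript 4970. With principal transcripts as lengths, Camk2d stood at 125 ± 8.23 TPM in place of 46.7, Camk2b at 446 ± 8.85 in place of 299.8, Camk2g at 179 ± 21.3 in place of 158 and Camk2a at 2507 ± 298 in place of 2545. The log2 difference from Camk2a was then 2.48 for Camk2b, 3.81 for Camk2g and 4.32 for Camk2d, and the share of Camk2a in CaMKII was 76.9% ± 1.35. Camk2a was 3.34 ± 0.26 times the sum of the others on this scale. Without any length correction, in counts scaled to library size alone (CPM), Camk2a still made up 79.8% of CaMKII, and Camk2g and Camk2d had nearly equal shares of 4.24% and 4.42%. Which transcripts of these genes were present was not measured by gene counts.

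**Figure D3:**
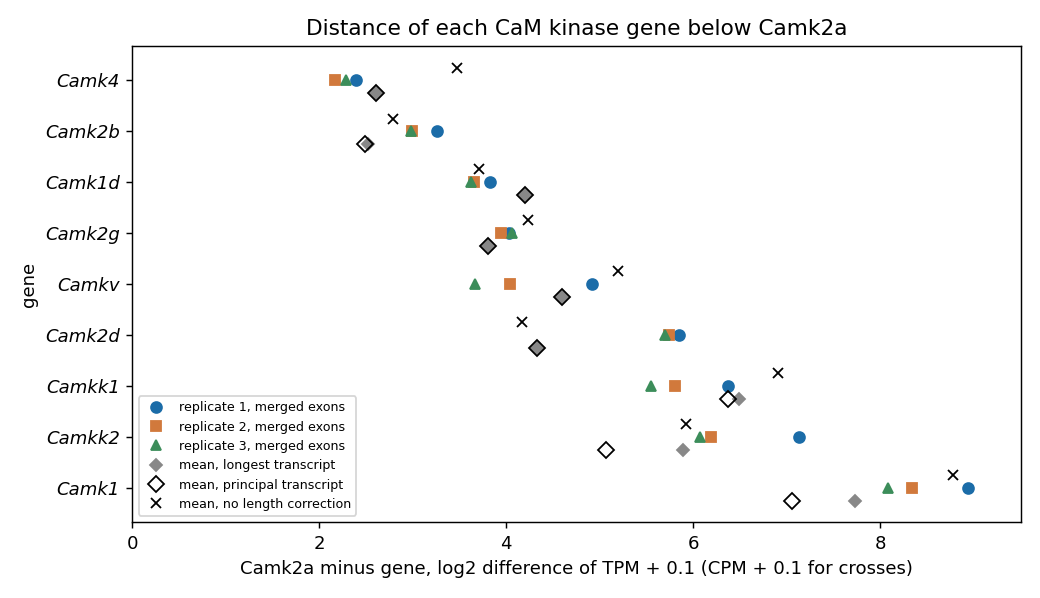
Log2 difference of Camk2a minus each other CaM kinase gene, with coloured symbols for the 3 libraries at merged exon lengths, and diamonds and crosses for means under other lengths and without length correction. Every symbol lies right of 0, from 2.16 for Camk4 in replicate 2 to 8.94 for Camk1 in replicate 1, and for Camk2d the alternatives lie at 4.17 to 4.32 against 5.76 with merged exons.

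Of the kinases that work as single subunits, Camk4 was the most abundant and Camk1 the least. Camk4 encodes CaMKIV (chromosome 18, 32934931 to 33191228, plus strand), and it stood at 549, 542 and 476 TPM in replicates 1, 2 and 3 (522 ± 40.4, SD, n = 3). With merged exons it came closest to Camk2a of the other 9 genes, 4.86-fold below it (log2 difference 2.28, SD 0.12, limma adjusted p = 8.06e-05). With the longest or principal transcript or in CPM, Camk2b was the closest instead. A noncoding antisense gene, 2310026I22Rik, overlaps 2.21% of its exons, and reads of that stretch cannot be told apart without the strand setting.

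Camk1d, the delta form of CaMKI (chromosome 2, 5293457 to 5714515, minus strand), stood at 203, 193 and 188 TPM in replicates 1, 2 and 3 (195 ± 7.74). Camk1, the alpha form (chromosome 6, 113334124 to 113343984, minus strand), stood at 5.77, 7.38 and 8.47 TPM (7.21 ± 1.35) on 95, 124 and 146 counts. Camk1d and Camk1 therefore differed widely, lying 13.0-fold and 351-fold below Camk2a (limma adjusted p = 1.63e-05 and 8.59e-06). Exons of the neighbour Ogg1, a DNA repair gene on the opposite strand, overlap 3.88% of those of Camk1. Camk1 was the only one of the 10 genes below the median level of the genes tested, and it stayed lowest with each of the lengths tried.

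The genes of the kinase kinases lay below Camk4 and Camk1d, which encode kinases that they phosphorylate, and above Camk1. Camkk1 (chromosome 11, 73019008 to 73042073, plus strand) stood at 34.7, 43.3 and 49.3 TPM in replicates 1, 2 and 3 (42.4 ± 7.38, SD, n = 3). Camkk2, which also activates the energy sensor AMPK (chromosome 5, 122731170 to 122779409, minus strand), stood at 20.5, 33.1 and 34.4 TPM (29.3 ± 7.64). Both were lowest in replicate 1. They lay 60.2-fold and 88.4-fold below Camk2a (limma adjusted p = 1.80e-05 and 2.79e-05). The order of these genes turned with length, since Camkk2 has merged exons of 10921 bases and a principal transcript of 2751. With principal transcripts, Camkk2 stood at 76.3 ± 19.9 TPM and Camkk1 at 30.3 ± 5.28.

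Camkv encodes a vesicle-associated protein of the CaM kinase family that lacks kinase activity (chromosome 9, 107935674 to 107949691, plus strand). It stood at 95.3, 148 and 183 TPM in replicates 1, 2 and 3 (142 ± 44.3, SD, n = 3), the widest relative spread among the 10 genes. It lay 18.5-fold below Camk2a (log2 difference 4.21, SD 0.65, limma adjusted p = 0.000171). The difference ran from 4.92 in replicate 1 to 3.66 in replicate 3.

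By mean TPM the order was Camk2a, Camk4, Camk2b, Camk1d, Camk2g, Camkv, Camk2d, Camkk1, Camkk2 and Camk1. All 10 genes reached 1 TPM in 3 of 3 libraries, and Camk2a, Camk4, Camk2b, Camk1d and Camk2g reached 100 TPM in each. Of the 45 pairs of these genes, 40 differed past the threshold by limma, and of the 9 neighbours in the order, 6 did. By limma with an unmoderated spread, Camk2b minus Camkv (adjusted p = 0.0614), Camkv minus Camk2d (0.0558) and Camkk1 minus Camkk2 (0.052) missed it. Camk1d minus Camk2g then passed it (adjusted p = 0.0495). Each gene's rank sets how many of all genes lie below it by the same test. That share was 97.1% below Camk4, 93.8% below Camk2b, 89.3% below Camk1d, 85.6% below Camk2g, 80.8% below Camkv, 61.6% below Camk2d, 58.2% below Camkk1 and 46.8% below Camkk2. The count of pairs therefore mainly restates that the genes are spread over the range of expression, from percentile 99.8 for Camk2a to percentile 43.1 for Camk1. The shares below Camkv and Camkk2 may be too high, because the moderated p is too small where these are the upper gene.

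Camk4 exceeded Camk2b by 0.80 on the log2 scale (SD 0.09, limma adjusted p = 0.00306), and Camk2b exceeded Camk1d by 0.62 (SD 0.05, limma adjusted p = 0.00524). Both held in 3 of 3 libraries with merged exons, but with principal transcripts Camk4 minus Camk2b was -0.12 and missed the threshold, and in CPM it was -0.69 (limma adjusted p = 0.00507). Among the next genes down, no pair passed the threshold by limma in the main setting with merged exons. Camk1d minus Camk2g was 0.31 (limma adjusted p = 0.0606), Camk1d minus Camkv was 0.50 (limma adjusted p = 0.118) and Camk2g minus Camkv was 0.19 (limma adjusted p = 0.557). Camkv was below Camk2g in replicates 1 and 2 and above it in replicate 3. Camk1d minus Camk2g turned on the settings. With merged exons it was called by limma with an unmoderated spread (adjusted p = 0.0495) and by limma with the spread fitted as a trend on level (adjusted p = 0.0202). EdgeR with length offsets called it at 0.31 (adjusted p = 0.00962), and so did DESeq2 (adjusted p = 0.00925). Limma also called it in CPM (0.52, adjusted p = 0.0119). With principal transcripts limma called it the other way (-0.39, adjusted p = 0.0335). In CPM Camk2g also exceeded Camkv (0.96, limma adjusted p = 0.029).

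At the lower end, Camkv exceeded Camk2d by 1.56 (SD 0.57, limma adjusted p = 0.00021). The unmoderated adjusted p was 0.0558, and with principal transcripts the difference was -0.27. Camk2d minus Camkk1 was 0.15 (limma adjusted p = 0.472) and Camk2d minus Camkk2 was 0.70 (limma adjusted p = 0.0504), so the least abundant CaMKII gene was not separated from either kinase kinase with merged exons. With principal transcripts Camk2d lay 2.05 above Camkk1 on the log2 scale (limma adjusted p = 0.000669). Camkk1 exceeded Camkk2 by 0.55 (limma adjusted p = 0.0371, unmoderated 0.052), and Camkk2 exceeded Camk1 by 1.99 (limma adjusted p = 4.33e-05, unmoderated 0.0297). Where Camkv or Camkk2 is the upper gene, its own deviation between libraries enters every difference and the moderated p is too small.

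The libraries differed in these genes in opposite directions. Counts were scaled by library sizes adjusted with the trimmed mean of M-values (TMM), in CPM. Camk2a stood at 4326, 3572 and 3370 scaled CPM in replicates 1, 2 and 3, a highest value 1.28 times the lowest. Camkv ran the other way, at 72.0, 109.6 and 134 scaled CPM (1.87 times), and so did Camkk2 at 45.0, 71.1 and 73.1 (1.62 times). Camk2a, Camk4, Camk2b, Camk1d, Camk2g and Camk2d were highest in replicate 1, and Camkv, Camkk1, Camkk2 and Camk1 were lowest there. Replicates 1 and 2 were close for Camk2b (551 against 549.7 scaled CPM) and for Camk4 (359 against 348). With unadjusted total counts Camk4 was highest in replicate 2 and Camk2b lowest in replicate 1, and the other 8 genes kept their side.

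By chi-square, the counts of 10 of 10 genes varied between libraries beyond counting error (Benjamini-Hochberg adjusted p under 0.05), against 74.3% of all 12949 genes tested. The smallest ratio of highest to lowest was 1.06, for Camk2b at 551, 549.7 and 521 scaled CPM (chi-square adjusted p = 0.000724). The weakest call was that of Camk1, at 6.92, 8.69 and 9.85 scaled CPM (chi-square adjusted p = 0.0373). With unadjusted total counts 9 of 10 were called, against 75.1% of all genes, and Camk1d was not (chi-square adjusted p = 0.201). With DESeq2 size factors 9 of 10 were called, against 74.7%, and Camk1 was not (chi-square adjusted p = 0.0506). Without replicate 1, 5 of the 10 genes were called, against 42.5% of all genes, and without replicate 3 the count was 7, against 54.5%. The biological coefficient of variation estimated by edgeR ran from 13.1% for Camk2b to 25.7% for Camk1, beside a median of 22.4% over all genes. It was 14.3% for Camk2a and 20.0% for Camkv. These estimates are drawn toward those of other genes, so they are not each gene's own spread. In TPM the coefficient of variation was 2.13% for Camk2b, 11.9% for Camk2a, 18.8% for Camk1 and 31.1% for Camkv.

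Sums of cell type markers moved between the same libraries. The 8 general GABAergic markers summed to 5486, 5107 and 4703 scaled CPM in replicates 1, 2 and 3, and the 8 Htr3a class markers to 4165, 3038 and 2964, both highest in replicate 1 as Camk2a was. The 12 excitatory markers summed to 889, 881 and 980 scaled CPM, lowest in replicate 2 and highest in replicate 3, where Camk2a was lowest. That direction rested on Slc17a7 and Nrgn, since the other 10 markers summed to 644, 604 and 592 scaled CPM, highest in replicate 1 and lowest in replicate 3 as Camk2a was. With unadjusted total counts these 10 summed to 615, 617 and 607. The 6 MGE class markers, named for the medial ganglionic eminence from which other interneurons arise, summed to 1651, 1638 and 1444. Astrocyte markers summed to 1158, 927 and 931, oligodendrocyte markers to 368, 261 and 229, microglial markers to 11.7, 7.22 and 9.04, and endothelial markers to 6.41, 3.71 and 5.46 scaled CPM. The astrocyte sum came almost entirely from 1 gene, Slc1a2, with 15208, 12622 and 13170 counts in replicates 1, 2 and 3. All of the sums except the excitatory one were highest in replicate 1. With unadjusted total counts the MGE class sum was highest in replicate 2 and the excitatory sum lowest in replicate 1, and the other sums kept their highest and lowest library. The part of any of these cell types in the differences between libraries was not tested.

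**Figure D4:**
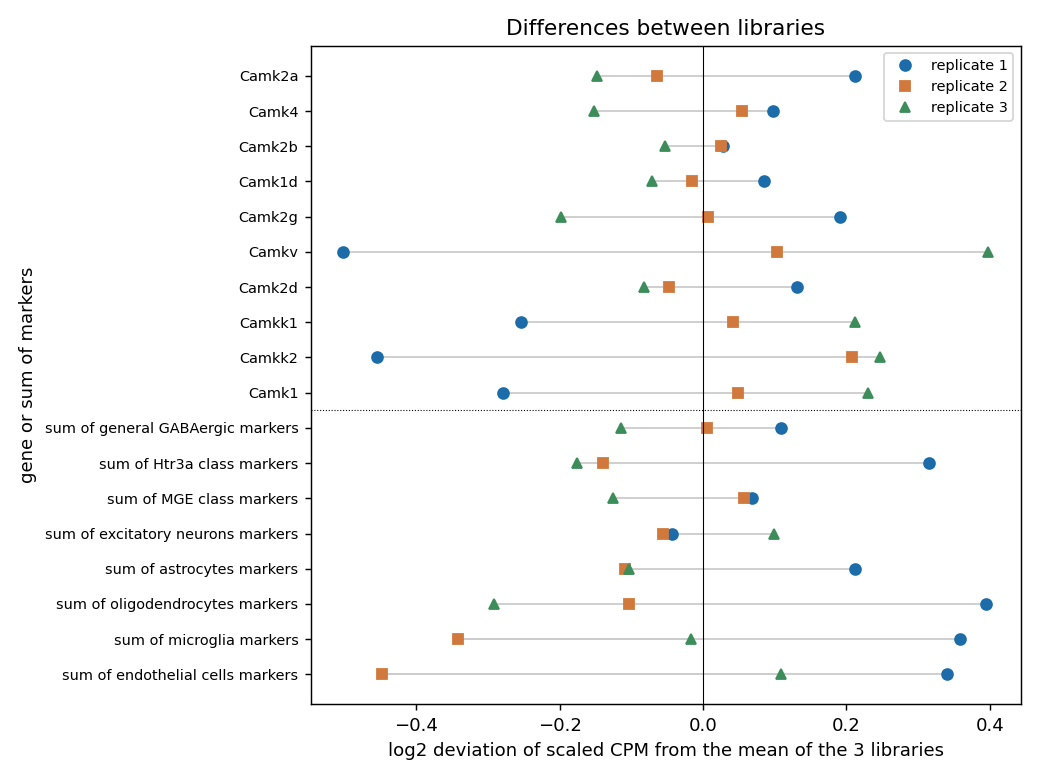
Log2 deviation of scaled CPM from the mean of the 3 libraries for the 10 genes, above the dotted line, and for the sums of 8 marker lists, below it, with 1 symbol per library. Replicate 1 lies right of 0 for Camk2a and 5 other genes and left of 0 for Camkv, Camkk1, Camkk2 and Camk1, and the largest deviation among the genes is that of Camkv at -0.50.

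Genes that feed or restrain the CaM kinases were set beside Camk2a on the same TPM scale. Calmodulin itself is made from several genes with the same protein product. Calm2 stood at 14693 ± 1013 TPM, 5.79-fold above Camk2a (limma adjusted p = 0.000106). In CPM Calm2 was only 0.19 above Camk2a on the log2 scale, and its counts in replicate 1, 56021, were below the 59362 of Camk2a. Calm3 stood at 1315 ± 300 TPM, 1.96-fold below Camk2a (limma adjusted p = 0.0173). Both genes that encode inhibitor proteins of CaMKII were below it. Camk2n1 stood at 1012, 1072 and 1452 TPM in replicates 1, 2 and 3 (1179 ± 239), 2.18-fold below Camk2a (limma adjusted p = 0.00653), and Camk2n2 at 297 ± 72.1 TPM, 8.71-fold below (limma adjusted p = 0.000296). Camk2n1 was lowest in replicate 1, where Camk2a was highest, so the ratio of Camk2a to it was largest there.

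Of 12 further kinases that calmodulin regulates or that are related to CaM kinases, 11 reached the minimum level for the test and all 11 were below Camk2a. The most abundant were Dclk1, a doublecortin-like kinase of microtubules, at 675 ± 112 TPM, and Cask, a synaptic scaffold with a CaM kinase domain, at 108 ± 7.49. The lowest was Dapk2 at 0.834 ± 0.536 TPM, which was not tested. The 8 phosphatase genes were all below Camk2a, led by the calcineurin genes Ppp3r1, the regulatory subunit, at 1455 ± 90.8 TPM and Ppp3ca, a catalytic subunit, at 441 ± 45.4. With principal transcripts their order turned, with Ppp3ca at 1316 TPM and Ppp3r1 at 1078. Ppm1f, a phosphatase that removes phosphate from CaMKII, was lowest at 27.4 ± 4.90. These counts stand beside the 99.7% of all genes that were below Camk2a.

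Among 12 substrates and anchors of CaMKII, 10 were below Camk2a and 1 was above it. The gene above was Syn1, a synaptic vesicle protein and CaMKII substrate, at 4182 ± 933 TPM (1.62-fold, limma adjusted p = 0.00707). With principal transcripts Syn1 was not separated from Camk2a (limma adjusted p = 0.323), and in CPM the sign turned, with Camk2a 0.48 higher on the log2 scale. The lowest was Grin2a, an NMDA receptor subunit, at 10.8 ± 0.29 TPM. Of 12 targets of CaMKI, CaMKIV and the kinase kinases, 12 were below Camk2a. Mef2d and Mef2c, transcription factors that respond to calcium, were the most abundant of them at 276 ± 56.8 and 272 ± 16.7 TPM, and Crem, a relative of CREB, the least at 9.58 ± 1.63. With principal transcripts Mef2c stood at 1084 TPM and Mef2d at 613, still the highest of the list. The median level of these targets was 57.8 TPM and that of the CaMKII substrates and anchors 119, against 20.4 over all genes tested.

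Because Camk2a serves as a marker of excitatory neurons, its level was set beside those of cell type markers. The gene that drives Cre, Htr3a, stood at 602 ± 46.2 TPM, and the interneuron gene Gad2, for GABA synthesis, stood at 2196 ± 111. Camk2a was not separated from Gad2 (log2 difference 0.21, limma adjusted p = 0.234) with merged exons, but lay 0.76 above it with principal transcripts (limma adjusted p = 0.00706). The other 7 of 8 general GABAergic markers were below Camk2a, down to Dlx6 at 10.7 ± 1.45 TPM. So were 8 of 8 Htr3a class markers, led by the neuropeptide gene Vip at 1042 ± 169 TPM and the cannabinoid receptor gene Cnr1 at 738 ± 171, with Sp8 the lowest at 8.19 ± 0.97.

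The excitatory markers were present at lower levels than Camk2a, and 12 of 12 were below it. Nrgn, which encodes the calmodulin-binding protein neurogranin, stood at 252, 337 and 405 TPM in replicates 1, 2 and 3 (332 ± 76.4), 7.78-fold below Camk2a (limma adjusted p = 0.000309). Slc17a7, the vesicular glutamate transporter of cortical excitatory neurons, stood at 158, 170 and 261 TPM (196 ± 56.2), 13.2-fold below Camk2a (limma adjusted p = 0.000147). Both were lowest in replicate 1, the library in which Camk2a was highest, but the list did not move as a whole. In scaled CPM, 5 of the 12 (Neurod6, Tbr1, Fezf2, Rorb and Bcl11b) were highest in replicate 1, as Camk2a was, and 6 were lowest there. With unadjusted total counts those numbers were 2 and 7. Of the 12, 11 reached 1 TPM in 3 of 3 libraries, none was at 0 in all of them, and the lowest was Emx1 at 1.13 ± 0.65 TPM. Their sum was 990, 1071 and 1230 TPM, below the level of Camk2a alone in each library. Some genes of this list, such as Bcl11b, are known from interneurons as well. Excitatory markers were thus detected, and the part of excitatory neurons in the level of Camk2a was not tested.

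Of the 6 MGE class markers, 5 were below Camk2a and Sst, the gene of the neuropeptide somatostatin, was above it. Sst stood at 8738, 8374 and 7653 TPM (8255 ± 552), 3.25-fold above Camk2a (limma adjusted p = 0.000216), although in CPM the direction turned and Camk2a was 1.67 higher on the log2 scale. Pvalb stood at 88.2 ± 34.5 TPM and Nkx2-1 was lowest at 9.96 ± 3.67. Sst was thus abundant, whereas the median of the 6 MGE class markers was 74.9 TPM, beside 74.1 TPM for the 12 excitatory markers. With no library of unpurified cortex analysed here, capture from MGE class cells was not tested and cannot be told apart from background RNA. Among glial and vascular markers, 6 of 6 for astrocytes, 6 of 6 for oligodendrocytes, 4 of 4 tested for microglia and 1 of 1 tested for endothelial cells were below Camk2a. Slc1a2, a glutamate transporter, stood at 369.9 ± 43.9 TPM, but the median of the 6 astrocyte markers was only 7.40 TPM. Cnp, an oligodendrocyte enzyme of myelin, stood at 103 ± 30.2. Mbp, a myelin protein gene, stood at 37.3 ± 0.22 TPM with merged exons and at 325 with the principal transcript, then above Slc1a2 at 275. The highest microglial marker was P2ry12 at 6.25 ± 2.37 and the highest endothelial one Flt1 at 1.11 ± 0.71.

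The genes with levels most like Camk2a were found by the Euclidean distance of log2(TPM + 0.1) over the 3 libraries. In order they were Rab7 at a distance of 0.081 and 2627 ± 309 TPM, Basp1 at 0.115 and 2505 ± 158, Hsp90ab1 at 0.19 and 2646 ± 122, Cplx1 at 0.24 and 2472 ± 43.2, and Rtn1 at 0.26 and 2723 ± 72.2. Rab7 was highest in replicate 1 as Camk2a was, at 2974, 2526 and 2382 TPM, whereas Cplx1 stayed between 2432 and 2517. None of the other 9 CaM kinase genes was among them. The distance measures likeness of level over 3 libraries and says nothing else about these genes.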

How the data were processed

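RNA bound to EGFP-tagged ribosomes was sequenced in 3 libraries of 1 group. The authors deposited raw read counts, whole numbers for each gene symbol, and STAR 2.0.0e, HTSeq and mm10 are named per the submitters' processing notes. For the annotation, counting mode and strand, the setting is not given in the sources used here. Lines that name no gene (no feature, ambiguous and not unique, at 11.0% to 13.1%, 2.49% to 2.83% and 11.2% to 13.1% of records) and a line named unknown, at 0 counts, were left out. Lengths came from GENCODE M21 on GRCm38, the assembly called mm10, for 23155 symbols matched directly and 728 by an older name. Symbols with a length held 94.6% to 97.0% of the counts, and 8648 had none.

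The 10 genes and all lists were chosen with earlier results of these data known. Genes with a mean of at least 1 TPM were tested. Within each library the gene of reference minus every gene, on log2(TPM + 0.1), was tested against 0 with limma 3.58.1, two-sided, adjusted over all 13132 genes after Benjamini and Hochberg, at a threshold of 0.05. All 10 genes passed this filter. A fold change is 2 to the power of this difference and is understated for genes near 0. Variation between libraries was tested by chi-square wherever the mean CPM reached 1, with TMM sizes and dispersions from edgeR 4.0.16. DESeq2 1.42.0 and edgeR with length offsets were alternatives. Besides the 10 genes, each list is named by its 2 highest and its lowest gene by TPM with merged exons, all genes where it has 3 or fewer, and any gene called above Camk2a. Some genes that this rule would name are not reported here. Htr3a and the glial and endothelial genes named beyond this rule were picked with their values in view. Software was Python 3.11.15 with matplotlib 3.10.9, NumPy 2.4.6 and pandas 2.3.3, and R 4.3.3.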

Additional observations from a re-analysis of the deposited data

How the results depend on the processing

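Camk2a stayed above each of the other 9 CaM kinase genes, past the threshold, in 117 of 117 values from 13 alternatives, among them other lengths, CPM, another pseudocount, no filter, an unmoderated spread, edgeR, DESeq2 and leaving out each library. Without 1 replicate, Camk2a minus Camk2b ran from 2.99 to 3.13, Camk2a minus Camk2g from 3.99 to 4.05 and Camk2a minus Camk2d from 5.72 to 5.79. Order among the lower genes depended on length. With the longest transcript, the principal transcript and CPM in turn, Camk4 minus Camk2b was -0.086, -0.12 and -0.69, Camkv minus Camk2d was -0.27, -0.27 and -1.02, and Camkk1 minus Camkk2 was -0.61, -1.31 and -0.99. Camk1d minus Camk2g was -0.39 with the longest and with the principal transcript. Camk2g minus Camkv ran from -0.15 (without replicate 1) to 0.49 (without replicate 3), and Camk2d minus Camkk1 from -0.042 to 0.30 without the same libraries. The call of Camkk1 minus Camkk2 was lost without any 1 of the libraries (limma adjusted p = 0.0647 to 0.257), and that of Camk2b minus Camk1d without replicate 2 (limma adjusted p = 0.0556). The mean Camk2a share of CaMKII was 77.2% with the longest transcript, 76.9% with the principal one and 79.8% in CPM, and 82.8% to 83.8% without 1 replicate. In CPM 5 genes lay above Camk2a, against 18, and without 1 replicate 13 to 19 did and 13077 to 13087 lay below. Without replicate 1, 5 CaM kinase genes varied between libraries, within a range of 5 to 10 over the libraries left out. Of 12 lists, 9 had the same 2 highest genes and 11 the same lowest gene with principal transcripts. That check and the sum of excitatory markers without Slc17a7 and Nrgn were chosen after seeing the data. No paired analysis was possible because there is 1 group. Depth limits Camk1 most, with 95 to 146 counts.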
